A study of Mus musculus with 6 samples.

Results

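The Fos, Jun and Egr genes encode transcription factors of the first wave of the response to neuronal activity. The 10 genes described here are Fos, Fosb and Fosl2 of the Fos family, Jun, Junb and Jund of the Jun family, and Egr1, Egr2, Egr3 and Egr4 of the Egr family. They were chosen by symbol, each matched by its Ensembl identifier in GENCODE M21 to 1 row of the count files. These are 10 of the 60354 features counted, and all 10 passed the filter on low counts that left 18580 features for testing.

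RNA-seq had been carried out on whole brains of 6 male C57BL/6NCrSlc mice, 3 fed a control diet (control mice 2, 5 and 10) and 3 fed a diet holding 20% PLDP, a decomposition product of porcine liver made with protease (PLDP mice 17, 22 and 26). Both diets were modified AIN-93M diets of matched calories, given for 16 weeks to mice 16 weeks old at the start. A series of behavioral tests followed, during which no PLDP was fed, and RNA was taken from the brain on the day after the last test. Totals ranged from 18797061 to 23938729 counts per mouse. The labels name separately numbered mice and give no batch or extraction date. Tissue identity was checked with 5 general neuron markers, which summed to between 4117 and 4261 CPM (counts scaled to library size, with TMM factors that lay between 0.997 and 1.01) in every mouse. Regional markers were not alike, and in PLDP mice hindbrain and spinal cord markers summed to 48.6% to 75.2% of the control mean and choroid plexus markers to 75.3% to 95.2%. A whole-brain library pools all regions and cell types, so a lower level cannot be told apart from fewer cells of the type that expresses the gene.

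Fos and Jun proteins are leucine zipper factors that pair to form AP-1. Fos family proteins need a Jun partner to bind DNA, while Jun proteins can also pair with each other. Egr proteins bind GC-rich DNA through zinc fingers and are held back by the Nab corepressors. The MAP kinase and calcium pathways act through SRF with Elk factors at CArG boxes and through CREB at cAMP response elements (CRE). Stimulation of these factors starts transcription of Fos and Egr1 without new protein synthesis. The transcripts are short-lived, so that their level is widely used as a mark of recent activity. Jund is the exception among the 10, being held to be transcribed steadily in most cells.

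The genes lie on 9 chromosomes of the build GRCm38, with the 2 genes Junb and Jund both on chromosome 8 but far apart. Fos (ENSMUSG00000021250) spans 85473890 to 85477273 on the plus strand of chromosome 12, Egr1 (ENSMUSG00000038418) 34859823 to 34864984 of chromosome 18, and Egr3 (ENSMUSG00000033730) 70077203 to 70082614 of chromosome 14. Fosl2 (ENSMUSG00000029135) lies at 32135801 to 32157842 of chromosome 5, and Fosb (ENSMUSG00000003545) at 19302696 to 19310051 on the minus strand of chromosome 7. Jun and Jund have 1 merged exon each. No other gene overlapped any of the 10 on the same strand, while Junos, Prdx2 and Gm11175 overlapped Jun, Junb and Jund on the opposite strand. Libraries were stranded, but the strand setting of the counting was not given in the sources used here, so values of these 3 genes could include reads from their neighbors.

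All 10 genes were expressed in the brain of every mouse. On the scale of CPM per kilobase of merged exons, which corrects for gene length, Jund had the highest level, at 124 ± 3.89 (mean ± SD over all 6 mice). Egr1 followed with 52.1 ± 6.11 and Junb with 39.1 ± 4.64. These 3 genes did not overlap one another, or the next gene in the order, in any mouse. Fos was at 25.7 ± 4.83 CPM per kilobase, Egr3 at 24.6 ± 3.30, Egr4 at 21.7 ± 1.53 and Jun at 20.3 ± 0.992. The ranges of neighbors within this middle group overlapped, so their order was not resolved over these mice. Fosl2 was lower, at 6.88 ± 0.955 CPM per kilobase, and its range overlapped that of Fosb, at 4.96 ± 0.660. Egr2, the factor that patterns the early hindbrain and drives myelination in Schwann cells, was the lowest of the 10, at 3.17 ± 0.617 CPM per kilobase, and rested on 173 to 298 counts per mouse. The other 9 genes each had at least 582 counts in every mouse.

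RefSeq promoter windows (GRCm38.p6, 250 bases before to 50 after the start) were matched for 8 of the 10 genes, all but Egr1 and Egr3. Egr2 has 5 such windows and the other genes have 1 each. For Egr2 the first by position was used in which the bases just after the start match a GENCODE M21 transcript. Sequences are printed for 4 genes that moved together over the mice (Fos, Egr2, Egr4 and Junb, described with the correlations) and for Jun, which did not move with them. Each is the 250 bases before the RefSeq start, 5′ to 3′ on the strand of the gene: chr12:85473640-85473889 (plus) for Fos, chr10:67537619-67537868 (plus) for Egr2, chr6:85513590-85513839 (minus) for Egr4, chr8:84978749-84978998 (minus) for Junb and chr4:95052223-95052472 (minus) for Jun. Capitals mark matches to the CRE half-site (TGACG, or CGTCA on the other strand), the CArG box and the TATA box (TATAAA), each searched on both strands.
Fos: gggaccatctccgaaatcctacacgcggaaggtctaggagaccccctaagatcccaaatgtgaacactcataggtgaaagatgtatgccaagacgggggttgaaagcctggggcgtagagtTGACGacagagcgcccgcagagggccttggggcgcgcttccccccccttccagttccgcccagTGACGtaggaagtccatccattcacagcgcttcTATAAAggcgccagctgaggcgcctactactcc
Egr2: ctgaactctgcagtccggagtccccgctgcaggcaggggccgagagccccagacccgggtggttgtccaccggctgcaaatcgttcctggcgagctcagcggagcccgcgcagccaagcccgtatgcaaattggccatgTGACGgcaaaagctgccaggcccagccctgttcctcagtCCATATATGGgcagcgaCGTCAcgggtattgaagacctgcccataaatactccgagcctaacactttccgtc
Egr4: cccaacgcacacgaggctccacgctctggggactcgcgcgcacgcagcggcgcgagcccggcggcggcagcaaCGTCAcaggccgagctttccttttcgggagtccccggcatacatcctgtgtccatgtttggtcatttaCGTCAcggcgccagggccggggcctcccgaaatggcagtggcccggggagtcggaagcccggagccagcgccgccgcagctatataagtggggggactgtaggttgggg
Junb: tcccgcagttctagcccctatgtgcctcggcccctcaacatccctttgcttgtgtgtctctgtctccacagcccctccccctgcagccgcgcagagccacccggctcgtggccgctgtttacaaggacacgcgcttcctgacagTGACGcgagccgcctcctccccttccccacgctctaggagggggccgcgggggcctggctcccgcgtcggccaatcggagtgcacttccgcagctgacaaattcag
Jun: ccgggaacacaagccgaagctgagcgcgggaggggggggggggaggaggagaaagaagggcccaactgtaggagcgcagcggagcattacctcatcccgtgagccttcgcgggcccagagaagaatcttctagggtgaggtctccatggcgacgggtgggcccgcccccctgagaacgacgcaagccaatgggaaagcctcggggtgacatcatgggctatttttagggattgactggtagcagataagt

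The CRE half-site was found in 5 of the 8 windows, those of Fos, Fosb, Junb, Egr2 and Egr4, against 20.8% of all 32851 RefSeq promoter windows. Fos carried it 129 and 66 bases before the start, with a TATA box 33 bases before the start. Egr2 carried a match on each strand, 111 and 55 bases before the start, with the only CArG box among the 8 windows used between them, 72 bases before the start (1.63% of all windows hold one). Of the 5 Egr2 windows, 3 hold the CRE half-site and 4 a CArG box. The first by position, with its start at 67535499 inside the gene, was not the one used and holds neither. In Egr4 the matches stood 177 and 109 bases before the start, in Fosb 60 and in Junb 106. The Egr motif (GCG, any base, then GGGCG) was found in Fosb and Fosl2, against 5.55% of windows. The full palindromic CRE, of which the half-site is part, and the AP-1 motif TGANTCA were found in 0 of the 8, against 1.79% and 7.81% of windows. The Jun window held no exact match to any of these motifs, nor did that of Jund. Near matches were not counted, such as tgacatca in the Jun sequence printed above, which resembles the full CRE. These are matches of letters in a fixed window, and binding was not measured. Bases farther upstream were not searched, and Egr1 and Egr3 had no window. The lack of a CArG box in the Fos window, or of any motif in another window, thus does not show that the gene lacks one. The RefSeq starts of Junb and Jund do not lie in a transcript of the gene in GENCODE M21. That of Junb, 84978748 on the minus strand, lies just outside its gene, which reaches 84978718, so its window may be offset. That of Jund, 70697739, lies before its gene, which begins at 70698949 on the plus strand. The whole Jund window thus lies before that gene, so its lack of motifs does not describe the promoter of the M21 gene.

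The comparison of PLDP with control mice asks whether the diet was followed by a different level of these early factors. Differences were tested with edgeR's quasi-likelihood test over all 18580 features and called at the study's threshold, an unadjusted p under 0.05. Of the 10 genes, 3 were called higher in PLDP mice (Fosl2, Egr3 and Fosb) and 0 lower. With DESeq2 and with limma voom, only Fosl2 was called. Over all features, 4.91% were called higher and 3.69% lower. After Benjamini-Hochberg adjustment over all features in the same edgeR test, 0 of the 10 passed 0.05, against 0.0323% of all features. Under the alternative settings 0 of the 10 passed adjustment, DESeq2 and limma voom included, except for 1 (Fosl2) with no low-count filter and 5 on leaving out PLDP mouse 17. The 2 diets overlapped in every one of the 10 genes, whereas 7.29% of all features were higher and 6.90% lower in PLDP mice without overlap. The median log2 fold change of the 10 was 0.10, and that of all features -0.0006. Exact permutation of the diets over the mice, for each gene alone, gave a two-sided p between 0.2 and 1, where 0.1 is the smallest value that groups of 3 allow.

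**Figure D1:**
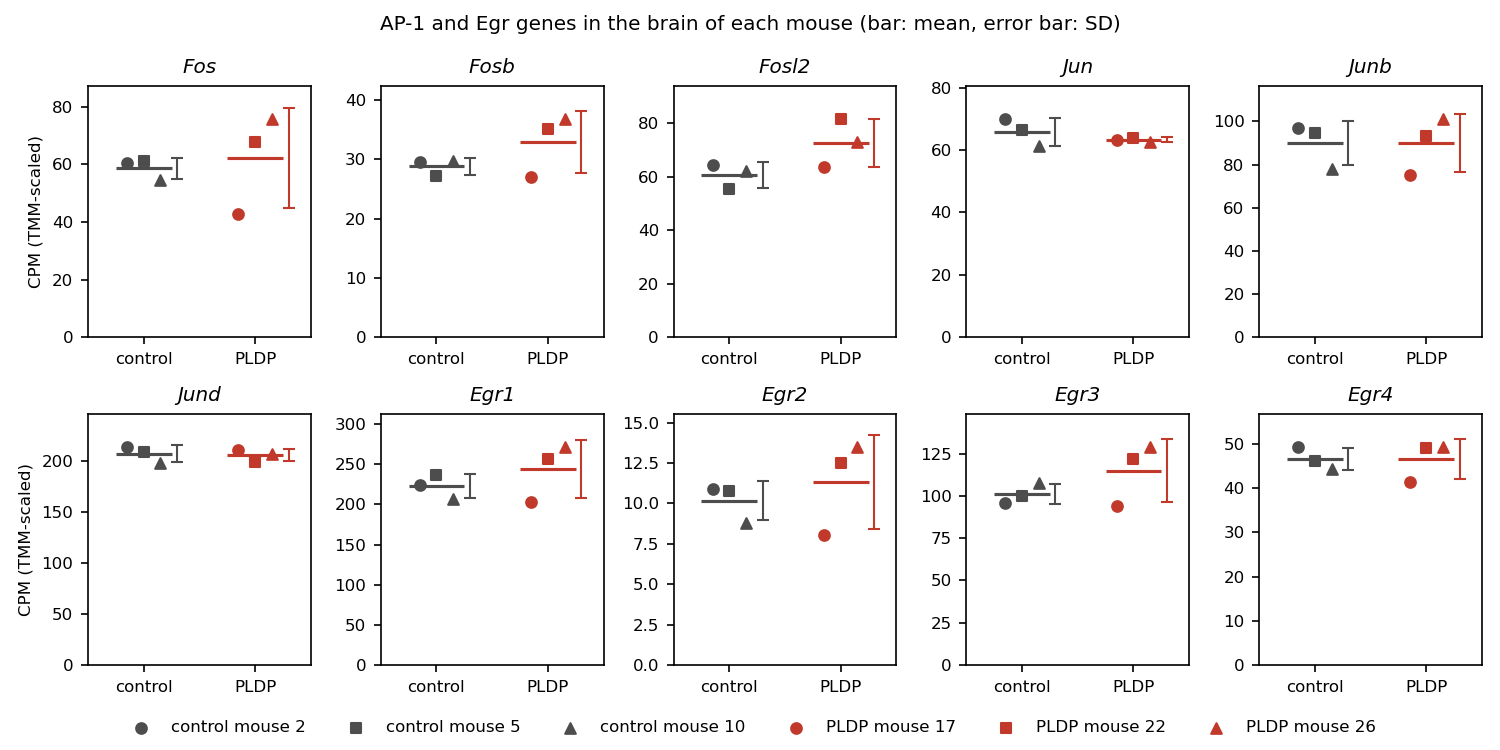
Level of each of the 10 genes in each mouse, in CPM on the vertical axis (linear, from 0), with control mice in gray and PLDP mice in red. Horizontal lines are means and error bars are SD over 3 mice. In most panels PLDP mouse 17 (red circle) lies at or below the control mice while PLDP mice 22 and 26 lie above or near the top of them, and Jun and Jund vary little.

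Fosl2, which encodes the Fos family protein Fra-2, showed the largest difference of the 10. Its level was 64.4, 55.2 and 62.2 CPM in control mice 2, 5 and 10. In PLDP mice 17, 22 and 26 it was 63.5, 81.6 and 72.7 CPM. PLDP mice 22 and 26 exceeded all control mice, and PLDP mouse 17 lay between control mice 10 and 2. The means were 60.6 ± 4.82 and 72.6 ± 9.04 CPM (SD, n = 3 each), a 1.20-fold difference with a 95% interval of 1.07 to 1.34 (log2 fold change 0.26, SE 0.08, p = 0.00315 and adjusted p = 0.306 by edgeR, exact permutation p = 0.2). Fosl2 was the only one of the 10 called higher on leaving out each mouse in turn, in 6 of 6 fits, with log2 fold changes between 0.17 and 0.35. Over all alternatives its adjusted p lay between 0.00148 and 0.720 by edgeR, DESeq2 or limma.

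Fosb encodes a full-length AP-1 factor and, by alternative splicing, a truncated and long-lived form, which counts per gene cannot separate. It stood at 29.6, 27.2 and 29.8 CPM in control mice 2, 5 and 10, and at 27.1, 35.1 and 36.9 CPM in PLDP mice 17, 22 and 26. Again the 2 PLDP mice 22 and 26 were above every control mouse, while PLDP mouse 17 was the lowest of the 6. The fitted difference was 1.14-fold, with an interval whose lower end lay just above 1 and whose upper end was 1.31 (log2 fold change 0.19, SE 0.09, p = 0.0494 and adjusted p = 0.579 by edgeR, exact permutation p = 0.4). It was called in 1 of the 6 fits that left out a mouse, that without PLDP mouse 17, where its log2 fold change was 0.32.

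Fos itself, the gene most often used as an activity marker, differed more among PLDP mice than between the diets. Its level was 60.6, 61.1 and 54.5 CPM in control mice 2, 5 and 10. PLDP mouse 17 had 42.6 CPM, the lowest of the 6, and PLDP mice 22 and 26 had 67.9 and 75.8 CPM, the highest. The SD was 3.65 CPM among control mice and 17.3 CPM among PLDP mice, around means of 58.7 and 62.1 CPM. The fold difference of 1.06 had an interval from 0.872 to 1.28 (p = 0.558, adjusted p = 0.916 by edgeR, exact permutation p = 1). Its log2 fold change was -0.08 without PLDP mouse 26 and 0.29 without PLDP mouse 17. The pooled SD of Fos within diets, on the log2 scale, was above that of 87.5% of all features tested, the highest percentile of the 10.

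The Jun family supplies the partners that Fos proteins need. Jun stood at 70.0, 66.3 and 61.2 CPM in control mice 2, 5 and 10, and at 63.4, 64.0 and 62.6 CPM in PLDP mice 17, 22 and 26. The 3 PLDP mice fell within the range of the control mice, with an SD of 0.719 CPM against 4.44 CPM. The log2 fold change was -0.06 (SE 0.05, p = 0.313, adjusted p = 0.821 by edgeR, exact permutation p = 0.4), with a fold interval of 0.888 to 1.04. Jund was at 214.2, 208.7 and 198.0 CPM in control mice and at 210.9, 199.0 and 206.8 CPM in PLDP mice. Here too all PLDP mice lay between the lowest and highest control mouse. Its fold interval, 0.934 to 1.06, was the narrowest of the 10 (p = 0.820, adjusted p = 0.971 by edgeR, exact permutation p = 0.8), and its SD within diets exceeded that of 16.4% of features.

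Junb, an early factor that can oppose Jun at some promoters, was at 96.8, 94.7 and 78.1 CPM in control mice 2, 5 and 10. It was at 75.0, 93.2 and 101.2 CPM in PLDP mice 17, 22 and 26. The lowest and the highest of the 6 values were both in PLDP mice, and the means of 89.9 ± 10.2 and 89.8 ± 13.4 CPM (SD, n = 3 each) were nearly equal. The fold interval, from 0.876 to 1.14 (p = 0.974, adjusted p = 0.997 by edgeR, exact permutation p = 1), leaves room for a difference of either sign.

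In the Egr family, all 4 genes had their lowest level in PLDP mouse 17 and their highest in PLDP mouse 26. Egr1, also called Zif268 and known for its part in long-term plasticity, was at 224.5, 237.2 and 206.8 CPM in control mice 2, 5 and 10, and at 203.6, 257.1 and 272.2 CPM in PLDP mice 17, 22 and 26. The fold difference was 1.10 with an interval of 0.979 to 1.23 (log2 fold change 0.13, SE 0.08, p = 0.106, adjusted p = 0.659 by edgeR, exact permutation p = 0.5). Egr3, which is induced in active neurons and needed for muscle spindles, was at 96.0, 99.9 and 108.0 CPM in control mice and at 94.0, 122.1 and 129.3 CPM in PLDP mice. PLDP mice 22 and 26 were above every control mouse in both genes. Egr3 was called, at 1.14-fold with an interval of 1.01 to 1.28 (log2 fold change 0.18, SE 0.08, p = 0.0420, adjusted p = 0.561 by edgeR, exact permutation p = 0.4). Its call held in 2 of the 6 fits that left out a mouse, those without control mouse 10 and without PLDP mouse 17.

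Egr2 was at 10.9, 10.8 and 8.78 CPM in control mice 2, 5 and 10, and at 8.04, 12.5 and 13.5 CPM in PLDP mice 17, 22 and 26. It had the widest interval of the 10, from 0.895-fold to 1.38-fold (log2 fold change 0.15, SE 0.15, p = 0.315, adjusted p = 0.823 by edgeR, exact permutation p = 0.6). Egr4, a less studied member found mainly in the nervous system, was at 49.4, 46.1 and 44.4 CPM in control mice and at 41.5, 49.2 and 49.4 CPM in PLDP mice. The PLDP mice 22 and 26 were level with control mouse 2, and the log2 fold change was 0.00 (SE 0.07, p = 0.979, adjusted p = 0.997 by edgeR, exact permutation p = 1).

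**Figure D2:**
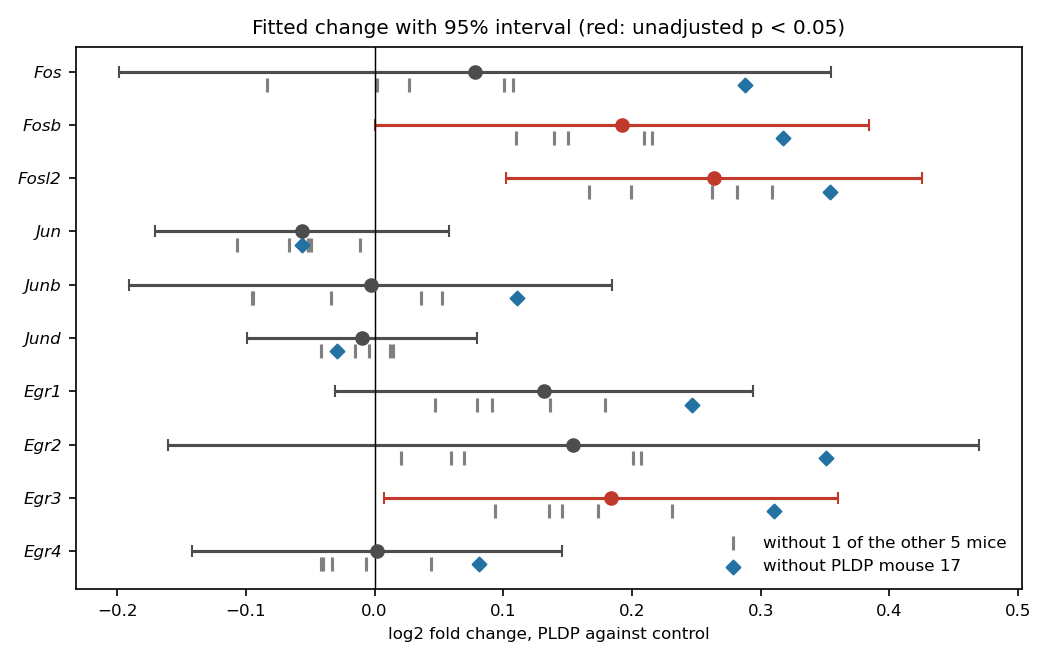
Log2 fold change of PLDP against control for each of the 10 genes (horizontal axis) with its 95% interval from edgeR, in red where the unadjusted p was under 0.05. Ticks show the value without each of 5 mice and the blue diamond that without PLDP mouse 17, which is the highest of the leave-one-out values in 8 genes, Jun and Jund being the exceptions.

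PLDP mouse 17 stood apart from the other PLDP mice, and not in these genes alone. Over all 18580 features tested it was the lowest of the 6 mice in 3902 and the highest in 4037 (21.7%), while each other mouse was the lowest in 2766 to 3146 and the highest in 2683 to 3093. Among the 10 genes it was the lowest in 7 and the highest in 0, and PLDP mouse 26 was the highest in 7 of the 10, against 16.4% of features. PLDP mice 22 and 26 were together the top 2 in 6 of the 10 genes, against 10.2% of features. This order was looked for after the values had been seen. The summed level of the 10 genes was 916, 907 and 852 CPM in control mice 2, 5 and 10, and 830, 982 and 1021 CPM in PLDP mice 17, 22 and 26. By family, the Egr sum was 347 CPM in PLDP mouse 17 and 464 CPM in PLDP mouse 26, with control mice between 368 and 394 CPM. The Fos sum was 133 CPM in PLDP mouse 17 and 185 CPM in each of PLDP mice 22 and 26, with control mice between 143 and 155 CPM. The Jun sum differed less, from 337 to 381 CPM over all 6 mice, with both extremes in control mice.

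**Figure D3:**
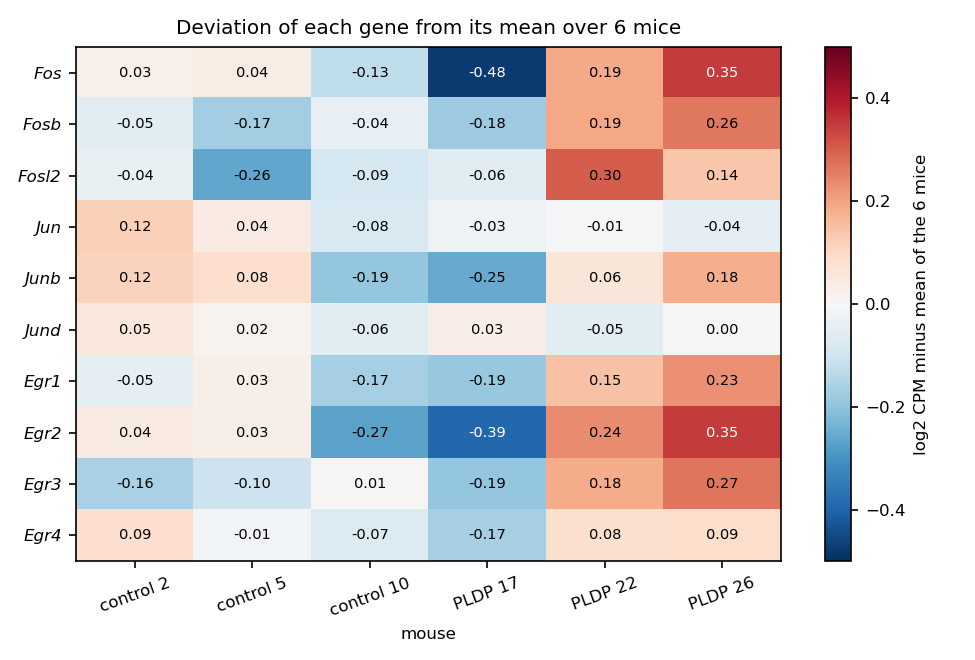
Deviation of log2 CPM from the mean of the gene over all 6 mice, with genes in rows and mice in columns, blue for lower and red for higher. The column of PLDP mouse 17 reaches -0.48 for Fos and is below 0 for 9 genes, while those of PLDP mice 22 and 26 are above 0 for 8 and 9 genes.

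The calls changed with this mouse. Without PLDP mouse 17, 6 of the 10 genes were called higher, namely Fos (log2 fold change 0.29), Fosb (0.32), Fosl2 (0.35), Egr1 (0.25), Egr2 (0.35) and Egr3 (0.31). The median log2 fold change of the 10 was then 0.27, and 1293 of 18848 features were called higher. After Benjamini-Hochberg adjustment in that edgeR fit, these genes other than Egr2 passed 0.05, as did 182 features in all. Junb (0.11) and Egr4 (0.08) did not pass in that fit. Leaving out any 1 of control mice 2 and 5 or PLDP mice 22 and 26 left only Fosl2 called, and leaving out control mouse 10 left Fosl2 and Egr3. With 2 PLDP mice left, that fit compares a smaller group, and what sets mouse 17 apart was not tested.

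Most of the 10 genes were positively correlated over the 6 mice. Over the 45 pairs, Pearson's r of log2 CPM across the 6 mice had a median of 0.579 (Spearman 0.6) and ranged from -0.593 to 0.971. It was at least 0.8 in 16 pairs, which is 35.6% of them, against 3.20% of all pairs of features compared. By exact permutation, 11 pairs had a Pearson p under 0.05 and 6 a Spearman p under 0.05, and 0 of the 45 passed after Benjamini-Hochberg adjustment over the pairs by either measure. The smallest p that 6 mice allow is 0.00139 for r and, without ties, 0.00278 for rho.

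Egr1 and Egr2 had the highest correlation, with r = 0.971 (rho = 0.943, exact permutation p = 0.00694 and 0.0167, adjusted p = 0.0547 and 0.125). Removing the diet means left r at 0.982, and leaving out the 2 mice farthest from the median of Egr1 left 0.952. Fos and Egr2 had r = 0.963 (rho = 0.943, exact permutation p = 0.00278 and 0.0167, adjusted p = 0.0547 and 0.125), and 0.987 without the 2 farthest mice. Fos and Egr1, the classic pair of activity markers, were in the same order in all 6 mice (rho = 1, r = 0.918, and 0.978 without the 2 farthest mice). Their exact permutation p was 0.00694 for r and 0.00278 for rho, with adjusted values of 0.0547 and 0.125. Fosb and Egr3 had r = 0.946 (rho = 0.943, exact permutation p = 0.00972 and 0.0167, adjusted p = 0.0547 and 0.125). That pair rested on the extreme mice, since r was 0.537 without the 2 farthest. So did most of the high correlations. Of the 16 pairs of at least 0.8, 4 remained so without the 2 farthest mice (Fos with Egr1, Fos with Egr2, Egr1 with Egr2, and Egr2 with Egr4), and the lowest of the 16, Fosb with Egr1, fell to -0.148.

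Jun and Jund did not share this course. Set apart after the values had been seen, they had a median r of -0.103 with the other 8 genes (-0.593 to 0.483 over 16 pairs) and r = 0.703 with each other. The other 8 genes among themselves had a median r of 0.802 (0.281 to 0.971 over 28 pairs) and accounted for all 16 pairs of at least 0.8. Within diets, after subtracting each diet mean, the median r was 0.669 over all pairs and 0.830 over these 28. Without PLDP mouse 17 the medians were 0.639 and 0.754. Among control mice the genes did not share 1 course, since control mouse 10 had the lowest Fos, Egr1, Egr2 and Junb but the highest Fosb and Egr3, and control mouse 5 the highest Egr1 but the lowest Fosb and Fosl2. All values of 1 mouse come from the same library, so these correlations describe mice and libraries together. The 5 sequences printed above were chosen by this split, so their motifs are no test of it. Fos, Egr2, Egr4 and Junb were correlated with each other at 0.893 to 0.963, and Jun with these 4 at 0.0918 to 0.483. The correlations of Junb in this block rested on the extreme mice, with r of 0.726 with Fos, 0.510 with Egr2 and 0.397 with Egr4 once the 2 farthest were left out.

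**Figure D4:**
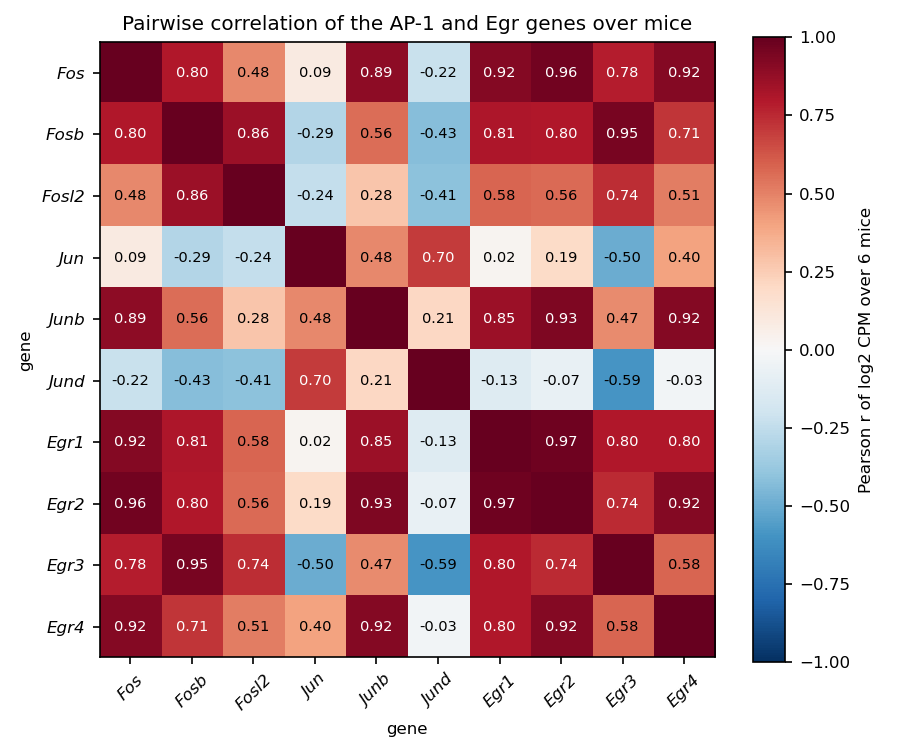
Pearson's r of log2 CPM over 6 mice for each pair of the 10 genes, from -1 (blue) to 1 (red). The rows of Jun and Jund are pale or blue except for their shared cell at 0.70, and the block of Fos, Egr1, Egr2, Egr4 and Junb is dark red.

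The features most like Fos over the 6 mice, among 16420 with a mean of at least 1 CPM, were Prkca (r = 0.997), Sox4 (0.994), Atf2 (0.994), Epb41l1 (0.993) and the early gene Ier2 (0.988). Those most like Egr1 were Ppm1l (0.994), Ctnnd2 (0.994), Trp73 (0.993), the early gene Btg2 (0.993) and Daam1 (0.985). Those most like Jund were C1ql4 (0.997), Dynll2 (0.993), Zfp330 (0.992) and Trmt61b (0.990). With 6 mice and so many features, r of at least 0.95 was reached by 56, 42 and 46 features for Fos, Egr1 and Jund. These counts include the gene itself and features of any name. These names describe likeness in these mice only.

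Genes that act with, above and below the AP-1 and Egr factors were counted in the same edgeR fit at an unadjusted p under 0.05. Of the AP-1 partner genes, which include the Atf and Batf genes, 7 of 10 were tested, 0 were higher and 1 was lower, Creb5 (log2 fold change -0.42). Their median log2 fold change was -0.02. Of 9 SRF, Elk and Mef2 factors, 3 were higher, namely Elk4 (0.27) and the SRF coactivators Mrtfa (0.15) and Mrtfb (0.12), and Mef2a was lower (-0.10). Without control mouse 5 or PLDP mouse 26, 0 of the 9 were lower. Srf itself, at 0.07, did not pass. Of 8 CREB factors and coactivators, only the coactivator Crebbp was called, 0.21 higher on the log2 scale (2 of the 8 were higher without PLDP mouse 17). Of 13 tested MAP kinases, 0 were higher and 1 was lower, Mapk9 (-0.09), a kinase of the Jun N-terminal group, and 0 were lower without control mouse 2 or PLDP mouse 26. Without PLDP mouse 17, 1 of the 13 was higher.

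Some brakes on the pathway also differed. Of 11 genes that restrain AP-1 and Egr signaling, 3 were higher and 0 lower, all of them Dusp genes, which encode phosphatases of MAP kinases. The count of 3 was 5 without PLDP mouse 17 and 2 without PLDP mouse 26, without control mouse 10, with DESeq2 and with limma voom. Dusp4 rose from 20.9 ± 1.53 to 26.6 ± 2.11 CPM (SD, n = 3 each) and Dusp5 from 36.7 ± 1.46 to 43.5 ± 1.16 CPM, each with all PLDP mice above all control mice. Their log2 fold changes were 0.35 and 0.25, with an adjusted p of 0.147 for both by edgeR. Dusp1 was at 52.5 ± 3.75 and 65.6 ± 17.9 CPM (log2 fold change 0.32), with overlap between the diets. Nab2, the Egr corepressor and itself an Egr target, was at 55.2 CPM in both diets. Of 11 tested targets of AP-1 and Egr factors, only Syn1, a synaptic vesicle gene, was called (0.09 higher on the log2 scale). The number of targets called higher was 0 without control mouse 5, control mouse 10, PLDP mouse 22 or PLDP mouse 26 and 2 without PLDP mouse 17. It was also 0 with edgeR's exact test on all mice. Without control mouse 2, control mouse 5 or PLDP mouse 22, 1 target was lower. The median log2 fold change of the targets was 0.004.

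Other genes induced by neuronal activity were counted in the same way. Of 27 such genes, 14 were higher and 0 lower, with a median log2 fold change of 0.20 and 26 positive values. Vgf, a secreted neuropeptide precursor, was at 215.6 ± 8.17 CPM in control and 260.1 ± 18.3 CPM in PLDP mice, Bdnf, a neurotrophin, at 20.7 ± 0.474 and 26.7 ± 2.2 CPM, and Klf4, a zinc finger factor, at 7.78 ± 0.623 and 14.2 ± 5.04 CPM. These 3 genes had the smallest p of the 27. In each, every PLDP mouse was above every control mouse, as in 7.29% of all features. Their log2 fold changes were 0.27, 0.36 and 0.87 (adjusted p = 0.0735, 0.0911 and 0.132 by edgeR). In most of the 27 genes, as in all 10 factors, the diets overlapped. Among these was Arc, a synaptic early gene, at 204.3 ± 12.8 and 244.8 ± 57.4 CPM. The summed level of the 27 genes in PLDP mouse 17 was 99.9% of the control mean, and in PLDP mice 22 and 26 it was 119% and 125%. For the 10 factors the same shares were 93.0%, 110% and 114%. The count of 14 was 7 without PLDP mouse 22, 9 without PLDP mouse 26 and 19 without PLDP mouse 17. These lists were written with earlier results of these data known.

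**Figure D5:**
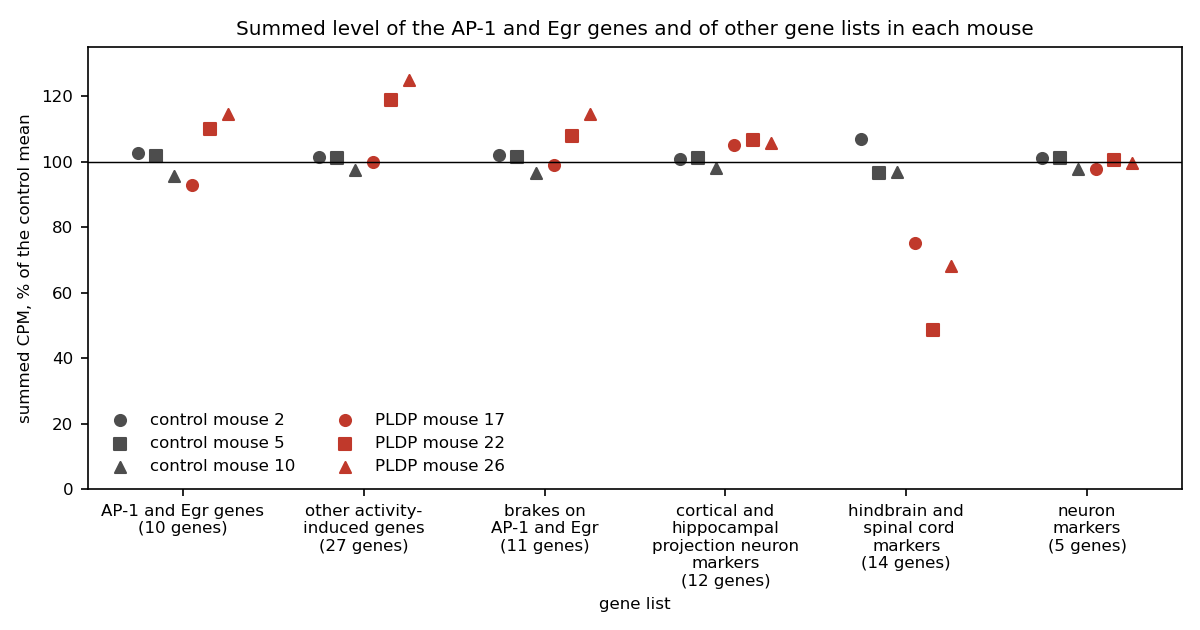
Summed CPM of the 10 AP-1 and Egr genes and of 5 other lists in each mouse, as a percent of the control mean (vertical axis, from 0, with a line at 100). PLDP mice 22 and 26 are above the control mice in the first 3 lists, while PLDP mouse 17 is near or below 100. All PLDP mice are low for hindbrain and spinal cord markers, from 48.6% to 75.2%.

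Markers of some brain regions differed between the diets. Of 18 hindbrain and spinal cord markers, 14 were tested, 0 were higher and 13 lower, with a median log2 fold change of -0.94. This median was -0.56 without PLDP mouse 22, with 9 lower, and -1.43 without PLDP mouse 17, and DESeq2 called 8 lower. Their summed level was between 154 and 171 CPM in control mice and 120, 77.9 and 109 CPM in PLDP mice 17, 22 and 26. Slc6a5, Glra1 and Hoxb3 had the smallest p among them, with log2 fold changes of -0.66, -0.50 and -1.05. Of 12 cortical and hippocampal projection neuron markers, 5 were higher and 0 lower, with the smallest p for Camk2a (log2 fold change 0.10), Fezf2 (0.22) and Neurod2 (0.14), and their sum was between 3649 and 3762 CPM in control and between 3913 and 3966 CPM in PLDP mice. The count of 5 was 3 without PLDP mouse 22 or without control mouse 10. Among striatal, cerebellar and thalamic neuron markers 0 of 7, 0 of 6 and 0 of 5 were called, and among hypothalamic markers 1 of 6, Pmch, was lower (-0.36). These counts moved with single mice. Cerebellar markers had 2 lower without control mouse 5 or PLDP mouse 17, thalamic markers 2 higher without PLDP mouse 17 and 1 lower without PLDP mouse 22, and striatal markers 1 lower without control mouse 2. Hypothalamic markers had 1 higher and 2 lower without control mouse 5, and 0 called without control mouse 2 or with DESeq2. PLDP mouse 17, the lowest for 7 of the 10 factors, had 105% of the control mean of the cortical and hippocampal markers, against 107% and 106% in PLDP mice 22 and 26. Thalamic markers were at 91.7%, 114% and 104% in PLDP mice 17, 22 and 26, with 4 of 5 lowest in mouse 17. Of these markers 4 of 5 were highest in mouse 22, whereas 7 of the 10 factors were highest in mouse 26. Astrocyte markers were at 97.2%, 103% and 106%, with 4 of 6 lowest in mouse 17 and 1, Aqp4, called lower (-0.11). Oligodendrocyte markers ran the other way, at 102%, 90.0% and 90.7%, and Mbp was called lower (-0.12). Choroid plexus markers were at 75.3%, 95.2% and 88.1% of the control mean in PLDP mice 17, 22 and 26, and 2 of 5, Ttr (-0.22) and Folr1 (-0.31), were lower (from 1 to 3 on leaving out a mouse). General neuron markers lay between 97.7% and 101% in every mouse, and 1 of 5, Nefl, was called lower (-0.09). The astrocyte call was lost without control mouse 10 or PLDP mouse 26, the call of Mbp without control mouse 5 and the neuron call without control mouse 2. The part of these regional and cell type differences in the levels of the AP-1 and Egr genes was not tested.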

How the data were processed

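Whole-brain RNA from 6 mice was sequenced from stranded polyadenylated libraries. The authors deposited 1 file of whole-number read counts per gene and mouse, without normalization. The submitters' processing notes name cutadapt 2.9, HISAT2 2.2.0, featureCounts 2.6.0 and DESeq2 1.6.3 with the builds GRCh38 and GRCm38. Which build served which step, the strand setting and the treatment of multi-mapping reads were not given in the sources used here.

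Symbols and coordinates came from GENCODE M21 (GRCm38), in which 54777 of 55034 Ensembl identifiers were found. The filterByExpr function of edgeR 4.0.16 (R 4.3.3) selected features (its min.count was 10 and its min.total.count 15). TMM factors scaled the libraries, and the quasi-likelihood test (glmQLFTest) compared the diets without covariates. Benjamini-Hochberg adjustment ran over all features tested. Log2 CPM used a prior count of 2. Correlations used exact permutation over 6 mice in Python 3.11.15 with scipy 1.17.1. Fits were tested on simulated data. Each mouse was taken as 1 replicate. Each value of the 10 genes rests on 173 to 6131 counts, and counting error is largest for Egr2.

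The 10 genes, the gene lists and the alternatives were chosen with earlier results of these data known. The text names the 10 genes and up to 3 called genes with the smallest p from each list. It also names the 5 features most correlated with Fos, Egr1 and Jund, within the limits on names given with them. Called markers of cell types that the text does not describe are left out. Some features that this rule reaches are not reported here. Mrtfb, Srf, Nab2 and Arc were named in addition, after their values had been seen. Alternatives were other scaling factors, other low-count filters, DESeq2 1.42.0, limma 3.58.1 voom, edgeR's exact test, Spearman correlation, deviations from diet means, another prior count and leaving out each mouse. Behavioral data were not analysed here.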

Additional observations from a re-analysis of the deposited data

How the results depend on the processing

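Fosl2 was called higher under every alternative run. Egr3 was called in 6 and Fosb in 3 of the 8 fits that changed the scaling, filter or test. Only Fosl2 was called with DESeq2 and with limma voom, so that 1 of the 10 genes was higher in each. Egr1 was called with no low-count filter. DESeq2 called 564 features higher and 362 lower, and 1046 features were lower with no filter, against 913 and 685 in the main analysis. Leaving out 1 mouse gave from 1 to 6 of the 10 genes higher and medians from 0.0026 to 0.267 for their log2 fold changes, and from 493 to 1072 features lower, the highest value each time without PLDP mouse 17.

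Signs turned only for log2 fold changes near 0 or on leaving out 1 mouse. Junb was 0.0013 with upper-quartile factors, and Egr4 was -0.00047 with library size only, -0.00092 with no filter and -0.0017 with limma voom. On leaving out a mouse, Fos ranged from -0.084 to 0.288, Junb from -0.095 to 0.111, Jund from -0.041 to 0.014 and Egr4 from -0.041 to 0.081. The cause was not tested. Scaling moved the median of all features to at most 0.0049 on the log2 scale. The median pairwise r was between 0.506 and 0.766 over its alternatives. No paired analysis was possible because the diets share no mouse numbers.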
